A study of Zea mays with 2 samples.

Results

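The gene models described here carry names that start with AF546188.1_FG, after a maize BAC clone (a large cloned piece of genomic DNA) with genes of the 19-kDa class of alpha zeins. Members were the gene models of this clone with a wild-type level of at least 100 RPKM, which is a read number scaled to the length of the gene model and the size of the library. The clone has 7 gene models among the 41406 in the deposited values, and 5 of them were members: AF546188.1_FG001, AF546188.1_FG002, AF546188.1_FG005, AF546188.1_FG006 and AF546188.1_FG007, written below by their last part. The members were selected on their wild-type RPKM, and the group was picked with the values of both libraries known, so all levels and ratios below are a description without a test. The files and the RefSeq gene table give no name or function to any of the 7 models, so whether each single model is a zein gene is not settled here.

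The tissue was maize (Zea mays) endosperm, the storage tissue of the kernel, collected from wild-type kernels and from kernels of dek44, a defective kernel mutant, both at 15 days after pollination. Each genotype had 1 library, although the series text speaks of triplicate profiling, and the sources used here do not say whether a library pools several plants. The totals recovered from the RPKM values were 20861135 reads in the wild-type library and 22612657 in the dek44 library. With 1 library per genotype no difference has a replicate check, and each interval below covers counting error only.

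Zeins are the prolamin storage proteins of maize and the main protein of the mature kernel. They are made by the starchy endosperm during kernel filling and are packed into protein bodies inside the endoplasmic reticulum. Alpha zeins form the core of these bodies and are encoded by families of tandem, near-identical copies, while beta and gamma zeins form the outer shell. Several zein genes are switched on by the transcription factors Opaque2, a bZIP protein, and the prolamin-box binding factor.

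FG007 and FG005 were among the most abundant transcripts of wild-type endosperm and were 8 to 9 times lower in dek44, while FG001 and FG002 of the same clone had similar levels in both libraries. AF546188.1_FG007 stood at 33044 RPKM in the wild-type library against 3708 in that of dek44, which is 8.91-fold lower (95% counting interval 8.75 to 9.08). AF546188.1_FG005 stood at 28924 RPKM in the wild-type library against 3423 in that of dek44, which is 8.45-fold lower (8.32 to 8.58). Both were high in the wild-type library and about as far below it in dek44. Fewer cells that make these transcripts and less of the transcript per cell cannot be told apart in bulk endosperm.

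The other 3 members lay more than 100-fold below FG007 in wild type. FG006 stood at 164 RPKM in wild type against 54.4 in dek44, which is 3.01-fold lower (2.75 to 3.30). FG002 stood at 265 RPKM in wild type against 268 in dek44, a ratio of dek44 to wild type of 1.01 (0.960 to 1.07). FG001 stood at 229 RPKM in wild type against 289 in dek44, a ratio of 1.26 (1.20 to 1.32). The levels of FG002 in the libraries thus differed by less than counting error, and FG001 was the 1 member with a higher value in dek44 beyond it.

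**Figure D1:**
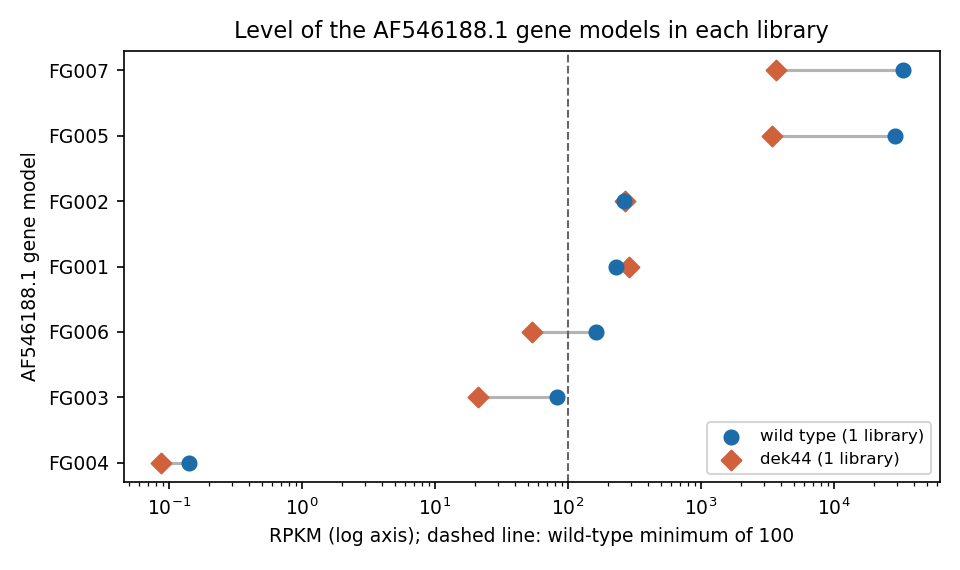
RPKM of the 7 gene models of AF546188.1 in the wild-type library (circles) and the dek44 library (diamonds), on a log axis, with a dashed line at the minimum of 100 RPKM in wild type; each point is 1 library, so there is no error bar. FG007 and FG005 drop from about 33044 and 28924 to 3708 and 3423, while the points of FG001 and FG002 nearly coincide.

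The remaining 2 models of the clone were not members. FG003 lay just outside the minimum, at 82.8 RPKM in wild type against 21.1 in dek44, or 3.92-fold lower (3.37 to 4.57). FG006, at 164 in wild type, was the member just inside it. FG004 was close to silent, at 0.143 in wild type and 0.0877 in dek44, from as few as 3 and 2 reads. Its fold of 1.63 has an interval from 0.186 to 19.5 and gives no direction.

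In wild type the levels per length ran, from high to low, FG007, FG005, FG002, FG001, FG006, FG003 and FG004. In dek44 FG001 stood above FG002, and the rest of the order was the same. FG007 exceeded FG005 by 1.14 times in wild type and 1.08 times in dek44. FG007 exceeded FG001 by 144 times in wild type but by 12.8 times in dek44, and FG002 by 125 and 13.8 times. The abundant pair thus stood much closer to FG001 and FG002 in the mutant library.

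The rank among all gene models tells the same levels against the rest of each library. FG007 ranked 6 in wild type and 20 in dek44, and FG005 ranked 8 and 23, so both stayed among the abundant transcripts. FG006 went from rank 745 to rank 3662. FG002 went from 448 to 725 and FG001 from 513 to 675, although neither had a lower RPKM in dek44. These shifts of FG001 and FG002 go with the median log2 ratio of all 30136 expressed gene models (RPKM of at least 1 in a library), which was 0.62 and thus above 0.

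The 5 members together made up 4.52% of the summed RPKM of the wild-type library and 0.587% of that of dek44. Added up, they reached 62626 RPKM in wild type against 7743 in dek44, 8.09-fold lower. FG007 alone took 2.39% of wild type and 0.281% of dek44, and FG005 took 2.09% and 0.259%. FG002 took 0.0191% and 0.0203%, FG001 0.0165% and 0.0219%, and FG006 0.0118% and 0.00412%. The sum is thus carried by FG005 and FG007.

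Within the members, FG005 and FG007 held 98.95% of their wild-type sum and 92.1% of their dek44 sum. FG001, FG002 and FG006 held the rest, 1.05% in wild type and 7.90% in dek44. Their own sum was 657 in wild type and 612 in dek44, which pools FG006, lower in dek44, with FG001, higher there at the scale as deposited. Over the whole table, the gene models that were lower in dek44 lost a summed RPKM of 543845, and FG005 and FG007 accounted for 54838 of it, or 10.1%.

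The smallest whole reads that give the RPKM values were 106848 in wild type and 12997 in dek44 for FG007. They were 146019 and 18729 for FG005. For FG001 they were 3016 and 4129, for FG002 2506 and 2753, and for FG006 1765 and 636. True reads may be higher than these, which would narrow the counting intervals. They are whole multiples of these only where the length found divides the true length. For FG005 and FG007, with many reads and so a wide tolerance, an accidental match at a shorter length is possible. The sources used here do not say how reads that match several near-identical copies were placed, so the split between FG005 and FG007 is less certain than their sum, which at 61968 RPKM in wild type against 7131 in dek44 was 8.69-fold lower.

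On the scale log2((dek44 RPKM + 1)/(wild-type RPKM + 1)), 3 of the 5 members were at least 2-fold lower in dek44 (FG005, FG006 and FG007), 0 at least 2-fold higher and 2 within 2-fold. Among all expressed gene models, 3.7% passed that 2-fold mark on the lower side and 31.6% on the higher side; with the median ratio of all expressed models set to 0 these shares were 10.9% and 12.3%. The minimum on the wild-type level itself favours lower values in dek44: of the 1249 other gene models with a wild-type RPKM of at least 100, 15.1% were at least 2-fold lower and 20.7% higher. The count of members is therefore given beside that share and nothing is read from it. The median log2 ratio of the members was -1.57, that of FG006, beside 0.62 for all expressed models.

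The log2 ratios were -3.16 for FG007, -3.08 for FG005, -1.57 for FG006, 0.02 for FG002 and 0.34 for FG001. Among the 30130 expressed gene models outside the clone, 73 had a ratio as low as FG007 or lower and 79 as low as FG005 or lower. For FG006 the number was 463. The ratios of FG002 and FG001 stood at percentiles 21.2 and 34.7 of the same models. Relative to the median of all expressed models FG001 was at -0.29 and FG002 at -0.60, so the direction of both turns with the scaling.

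**Figure D2:**
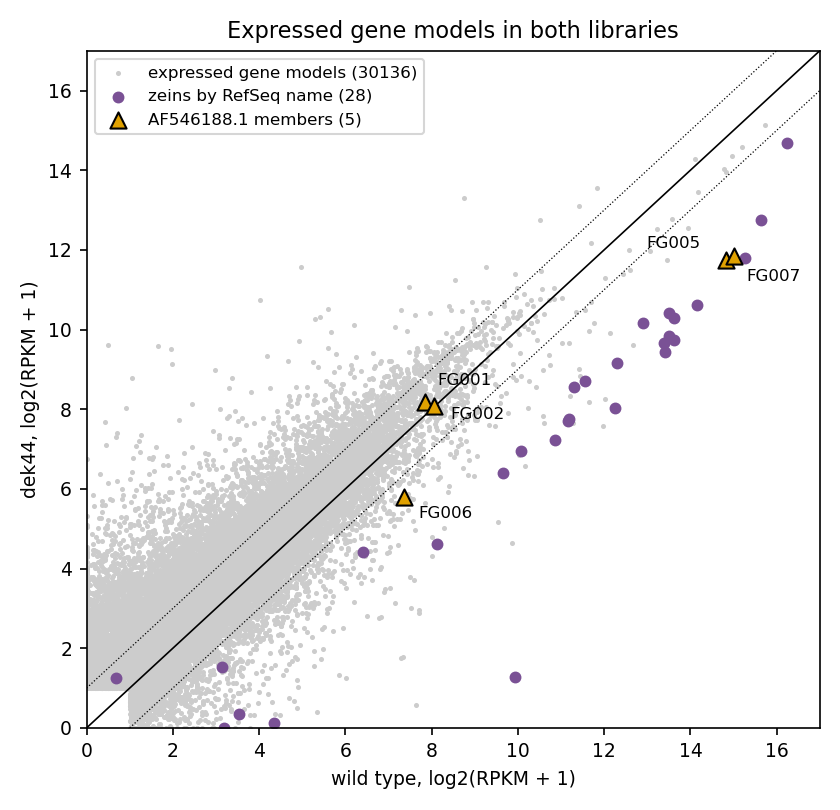
Levels of the 30136 expressed gene models in wild type (x axis) and dek44 (y axis) as log2(RPKM + 1), with the 28 zeins found by RefSeq name as circles and the 5 members as triangles; the solid line marks equal levels and the dotted lines 2-fold differences. FG005 and FG007 lie beside abundant named zeins well below the lower dotted line, FG001 and FG002 lie near the line of equal levels, and FG006 lies below the lower dotted line.

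Gene models of like wild-type abundance give another background. Outside the clone 21 gene models had a wild-type RPKM of at least 10000, of which 13 (61.9%) were at least 2-fold lower in dek44 and 0 higher, with a median log2 ratio of -1.70. Of these 21, 8 had a ratio as low as FG005 or FG007 or lower. Much of this background is the same gene family: 10 of the 21 were zeins by name, all 10 at least 2-fold lower, and they included 7 of the 8. Of the 11 others, 3 were at least 2-fold lower, with a median log2 ratio of -0.75. Only 40.3% of all identifiers were matched to a name, so zeins without a matched name may be among these 11. Between 100 and 300 RPKM in wild type, the range of FG001, FG002 and FG006, 866 other gene models had a median log2 ratio of 0.47 with quartiles of -0.17 and 0.99. FG001 and FG002 lay between these quartiles, whereas 51 of the 866 were as low as FG006 or lower.

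Other zeins were found by RefSeq name, which gave 28 gene models outside the clone; delta zeins were not among the name patterns. In dek44, 27 of them were lower by 2-fold or more and 0 were higher by as much, with a median log2 ratio of -3.29. The 9 alpha zeins of the z1A subfamily ranged from -3.98 to -3.07, and their summed RPKM was 11.4-fold lower. The 12 of the z1C subfamily ranged from -8.65 to -2.74, with a sum 9.63-fold lower. The 4 gamma and beta zeins ranged from -4.24 to -1.56, with a sum 4.68-fold lower. The ratios of FG005 and FG007 fell inside the range of each of these 3 classes. They were near the top of the z1A range, where 8 of the 9 genes had a lower ratio than both and 1 a higher one. In z1C, 7 of the 12 had a lower ratio than both and 3 a higher one.

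Members of the z1B subfamily found by name were weak and few. Only 3 gene models carried such a name, with at most 84.3 RPKM in wild type (GRMZM2G125130, z1B_9), and 2 of them were at least 2-fold lower. The third, GRMZM2G025763 (z1B_8), had 0.603 in wild type and 1.39 in dek44. Of all 24 named alpha zeins, 15 had a lower ratio than both FG005 and FG007, and 7 a higher ratio than both. No named alpha zein reached the wild-type level of FG005, the highest being GRMZM2G059620 (z1A1_3 and z1A1_4) at 18154. FG001 and FG002 lay above 23 of the 24 in ratio.

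**Figure D3:**
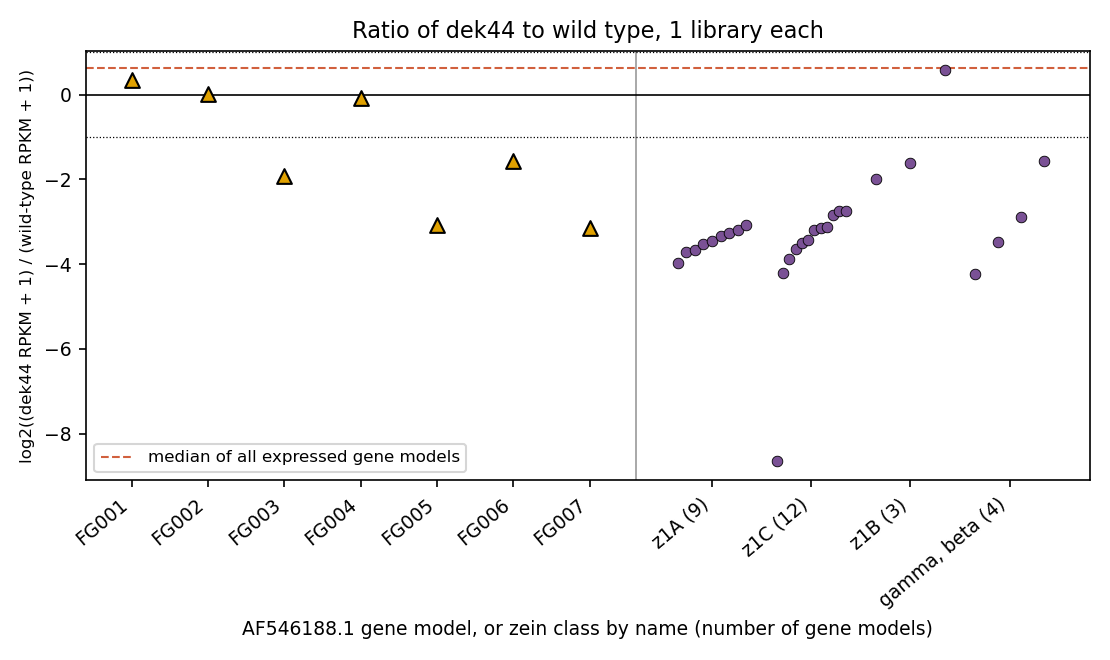
Ratio of dek44 to wild type as log2((dek44 RPKM + 1)/(wild-type RPKM + 1)) for the 7 AF546188.1 gene models (triangles) and for zeins found by name in 4 classes (circles, sorted within a class), 1 library per genotype; dotted lines mark 2-fold and the dashed line the median of all expressed models, 0.62. FG005 at -3.08 and FG007 at -3.16 lie within the ranges of z1A and z1C genes, near the top of z1A, while FG001 and FG002 lie near 0. FG004 is also drawn near 0, but its values are far below the pseudocount of 1 and give no direction.

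The 28 named zeins took 20.8% of the wild-type library's summed RPKM and 3.61% of that of dek44. These shares leave out the 5 members, and whether each member is a zein gene is not settled here. Named zeins and members together came to 25.4% of wild type and 4.20% of dek44. The members were 17.8% of that joint sum in wild type and 13.97% in dek44. In wild type they took less than the z1A subfamily, at 5.67% of summed RPKM, and more than the z1C subfamily, at 2.70%. In dek44 the order of the members and z1A was the other way round, at 0.587% and 0.522%.

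**Figure D4:**
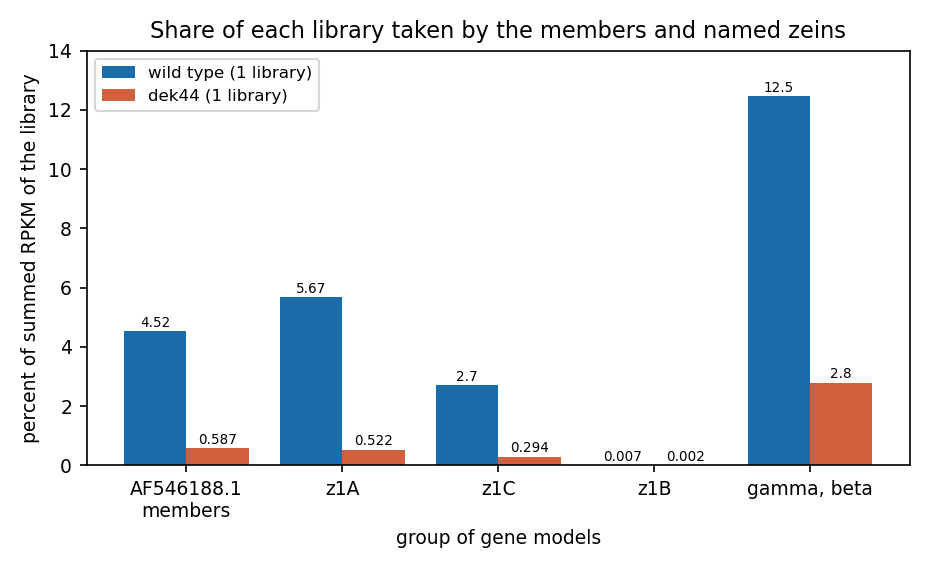
Percent of the summed RPKM of each library taken by the 5 AF546188.1 members and by named zeins of 4 classes, wild type in blue and dek44 in orange, 1 library each. The members take 4.52% in wild type and 0.587% in dek44, close to the z1A subfamily at 5.67% and 0.522%, and the gamma and beta zeins take the highest share in both libraries.

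The gene models most like FG007 and FG005 were those nearest to them in log2(RPKM + 1) over the 2 libraries. The nearest to both was the zein gene gz16 (GRMZM2G060429), at 39385 RPKM in wild type against 3555 in dek44, 11.1-fold lower (10.95 to 11.2), at a distance of 0.26 from FG007 and 0.45 from FG005. The other 4 were the same for both, the beta zein gene zp15 (GRMZM2G086294), the alpha zein model GRMZM2G059620, the gene hag (GRMZM2G304548) and GRMZM2G392863, at distances of 1.10 to 1.56 from FG007 and 1.18 to 1.37 from FG005. Of these, hag and GRMZM2G392863 were 2.65-fold and 3.26-fold lower, less than FG005 and FG007. Likeness here rests on 1 library of each genotype and says nothing beyond the levels.

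Gene models named by other BAC clones differed widely. Among the 1263 expressed ones, 4.59% were lower in dek44 by 2-fold or more and 26% were higher by as much, and among the 41 with a wild-type RPKM of at least 100 these shares were 24.4% and 22%. The most abundant in wild type was AF546187.1_FG001, at 4139 RPKM in wild type against 305 in dek44, 13.6-fold lower (13.2 to 13.98). AF546187.1_FG007, of the same clone, had 1199 and 260, 4.62-fold lower (4.47 to 4.78). AC149829.2_FG002 was 3.10-fold lower (2.93 to 3.29), while AC208023.3_FG001 and AC195340.3_FG001 had ratios of dek44 to wild type of 1.28 and 1.56. In wild type FG007 lay far above all of these.

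Of the known regulators of zein genes, o2 (GRMZM2G015534, Opaque2) stood at 456 RPKM in wild type against 80.7 in dek44, 5.66-fold lower (5.42 to 5.91). The name pbf1, the prolamin-box factor, belonged to a pair of models, GRMZM2G146283 with 64.3 and 32.0 and GRMZM2G146267 with 17.4 and 21.1. Of 8 gene models matched to the 11 regulator names, 2 (o2 and nkd1) passed 2-fold lower in log2(RPKM + 1) and 0 passed 2-fold higher. Among all expressed gene models, 3.7% passed 2-fold lower and 31.6% passed 2-fold higher. The median log2 ratio of the 8 was -0.06. GRMZM2G146283 missed 2-fold on the log2(RPKM + 1) scale, at -0.98, while its plain RPKM ratio was 2.01-fold lower.

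Markers of the labelled tissue were present. Of the 7 matched starchy endosperm models, gz27 and zp15 are zeins already counted above and summed to 128391 RPKM in wild type against 33067 in dek44. The other 5, matched by names of starch synthesis genes, summed to 10985 RPKM against 1479, 7.43-fold lower, with 4 at least 2-fold lower and 1 higher. The higher one was GRMZM2G039942, at 1.95 RPKM in wild type against 29.5 in dek44. It shares the name ae1 with GRMZM2G032628, and only the latter also carries the starch enzyme name SBEIIb. Whether GRMZM2G039942 is a gene of starch synthesis is thus not settled here. The 6 basal transfer layer models summed to 277 RPKM in wild type against 2349 in dek44, of which 5 passed 2-fold higher and 0 passed 2-fold lower, and the 2 of the embryo-surrounding region to 8.27 against 118, with 2 higher and 0 lower. These counts stand beside the 31.6% of all expressed models that were higher by as much. Aleurone and embryo models lay near that share and near the median of all models: 1 of 4 aleurone models was at least 2-fold higher (median log2 ratio 0.65, sums of 112 and 156) and 2 of 5 embryo models were (median 0.74, sums of 403 and 511). The embryo name glb1 matched both GRMZM2G067919, named globulin-1, and GRMZM2G067402, which also carries the names Hb and Hbm. GRMZM2G067402 was among the higher embryo models, at 0.0832 RPKM in wild type against 28.1 in dek44. Its names do not settle whether it is an embryo marker, so the embryo count and median are uncertain. None of the marker models was at 0 in either library, and no green tissue name was matched. The part of cell makeup in the lower values of FG005, FG006 and FG007 was not tested.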

How the data were processed

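Total RNA had been isolated by Trizol, column clean-up and DNase treatment before standard Illumina library preparation, per the labels' protocols. Per the submitters' processing notes, Bowtie 0.12.2 and the build B73 RefGen v3 were used. The authors deposited RPKM values, per the file headers; the sources used here do not state the counting rule, the use of strand or the lengths of the gene models. The series has 1 library per genotype, so no test was made.

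Library totals were recovered from the RPKM steps, taking the lowest values as 1 read over a whole length. With them 39505 of 39505 gene models above 0 in a library came out as whole reads in both. The match was within 0.001 reads plus a relative 1e-06, for some length from 100 to 20000 bases. This tolerance grows with the reads, so for abundant models such as FG005 and FG007 some length was nearly bound to match. For such models the outcome does not test the recovered totals. The smallest whole reads gave exact conditional binomial (Clopper-Pearson) 95% intervals of ratios, which cover counting error only. The procedure was tested on simulated data. Log2 ratios used a pseudocount of 1, which understates the change of low genes. RPKM is relative to its library, so a loss of abundant transcripts lifts the values of all others.

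Names came from the RefSeq table of another assembly (Zm-B73-REFERENCE-NAM-5.0), used for names alone; it matched 16689 of 41406 identifiers (40.3%) and 0 of the 7 of the clone. The members and all name lists were chosen with earlier results of these data known. Genes were named by rule. All models of the clone were named, and the 5 other BAC-named models highest in wild type. So were the 5 nearest each of the 2 most abundant members, and o2 and pbf1. Zeins by name pattern were counted by class. The gene nkd1, single zein models, marker sums and single marker models were added after their values were seen. Alternatives were other pseudocounts, filters, scalings, denominators and member minimums. Python 3.11.15, numpy 2.4.6, pandas 2.3.3, scipy 1.17.1 and matplotlib 3.10.9 were used.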

Additional observations from a re-analysis of the deposited data

How the results depend on the processing

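The count of members at least 2-fold lower, 3 as reported, was 3 with pseudocounts of 0.1 and 5 and under both other scalings, and 4 (FG003 added) with no minimum. Setting the median ratio of all expressed models to 0 lowers every log2 ratio by 0.62 and gave -3.78 for FG007, -3.70 for FG005, -2.19 for FG006, -0.60 for FG002 and -0.29 for FG001. Rescaling to the sum outside the named zeins and all models of the clone gave -3.45, -3.37, -1.86, -0.27 and 0.046 in the same order. The summed RPKM of the members, 8.09-fold lower as reported, was 12.5-fold and 9.89-fold lower under these scalings. It was 8.37-fold lower without FG001, 8.34 without FG002, 7.80 without FG005 and 7.33 without FG007. Their share of summed RPKM was 6.26% in wild type and 0.681% in dek44 without the 10 most abundant other gene models, 4.48% and 0.540% with a minimum of 1000 RPKM, and 4.53% in wild type with no minimum. Over all expressed models 1116 were lower and 9529 higher in the reported setting; a pseudocount of 5 gave 543 and 4192, and setting the median ratio to 0 gave 3284 and 3703. The share of recovered reads was not run, because reads are known at best up to a whole multiple per gene. No paired analysis was possible because there was only 1 library of each genotype, and for the same reason no library could be left out. FG004, at 3 and 2 reads, is limited by depth; for the other models of the clone the lack of replicate libraries limits what can be said.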
